A study of Drosophila melanogaster with 3 samples.

Results

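The genes described here are 54 homeobox genes of *Drosophila melanogaster* that are neither Hox genes nor segmentation genes, out of 13945 protein-coding genes. They were listed by gene symbol, and each of the 54 symbols matched 1 gene of the Ensembl annotation. For each gene, binding sites of the homeodomain protein Empty spiracles (Ems) were taken from the optimal peak list. This list is the authors' thresholded set of 3866 peaks, made from their 3 replicates together. A place in it does not mean that a site was found in every replicate. Of all optimal peaks, 64.6% overlapped 1 of the 3866 highest peaks in each of the 3 replicates. A site is given by its summit, the position of highest signal. Summits were looked for within 1 kb of a transcription start site (TSS) of the gene and in the gene body with 2 kb to each side. By the wider rule, 17 of the 54 genes held 25 distinct summits.

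The measurement was chromatin immunoprecipitation followed by sequencing (ChIP-seq), which recovers DNA fragments bound by a protein. The single group consisted of 3 biological replicates of whole embryos aged 0 to 24 hours, with males and females pooled, of the strain 16T-GFP. This is 1 transgenic line in which the C terminus of Ems is fused to green fluorescent protein, and the labels do not name the promoter that drives the fusion. The immunoprecipitation used an antibody to the tag per the experiment description, whereas another label field gives the antibody as ems, and the control library was not analysed here. Chromatin from all tissues and stages was mixed, so a low rank from few bound cells cannot be told apart from weak binding in many. Read depth is unknown because the lists hold no read counts, and the signal scale is not given, so signals were used only as ranks within a list, with rank 1 the strongest. With 1 group there was no contrast to test. Counts for the homeobox genes are set beside the same counts over all protein-coding genes, with the SD over the replicates' own lists.

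Homeobox genes encode transcription factors with a homeodomain, a helical fold that binds short A and T rich sites, often with a TAAT core. The families differ in the rest of the protein: PRD genes belong to the family of paired, LIM genes add LIM domains that bind cofactors, POU and CUT genes add another DNA-binding domain, and TALE genes carry a homeodomain with a loop extension. Outside the Hox and segmentation genes, most act later and more locally, setting the identity of eye, heart, muscle, leg, gut or particular neurons. Ems itself is a homeodomain protein of the head, brain, tracheae and posterior spiracles.

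The sequences at 5 of these sites are shown because each was the highest site of its gene, was present in all 3 replicates and lay outside transcribed untranslated sequence. Each is 201 bases of the forward strand of dm6, 100 bases to each side of the summit, read from the RefSeq copy of the Release 6 genome. Capitals mark TAAT, which reads ATTA on the other strand. They also mark the palindrome TAATTA, and GAGAGA, the core bound by GAGA factor.
NK7.1 (rank 308, chr3R:14373275-14373475): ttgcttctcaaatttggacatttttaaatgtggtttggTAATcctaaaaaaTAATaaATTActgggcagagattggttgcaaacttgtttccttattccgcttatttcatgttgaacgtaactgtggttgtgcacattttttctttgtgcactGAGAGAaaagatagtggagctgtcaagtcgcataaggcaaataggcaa
zfh1 (rank 405, chr3R:30781680-30781880): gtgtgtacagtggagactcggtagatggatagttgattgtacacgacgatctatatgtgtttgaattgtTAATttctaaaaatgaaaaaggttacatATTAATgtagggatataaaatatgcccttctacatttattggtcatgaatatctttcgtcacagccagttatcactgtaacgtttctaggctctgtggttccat
tup (rank 729, chr2L:18857702-18857902): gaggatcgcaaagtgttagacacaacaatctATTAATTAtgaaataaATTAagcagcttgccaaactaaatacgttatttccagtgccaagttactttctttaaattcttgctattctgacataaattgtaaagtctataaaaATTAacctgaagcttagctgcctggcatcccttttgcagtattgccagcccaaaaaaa
Lim1 (rank 1533, chrX:8774152-8774352): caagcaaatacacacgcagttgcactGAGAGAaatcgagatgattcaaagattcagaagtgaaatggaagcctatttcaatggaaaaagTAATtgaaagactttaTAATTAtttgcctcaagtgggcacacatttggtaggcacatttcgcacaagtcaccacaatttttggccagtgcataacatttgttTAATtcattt
tin (rank 1674, chr3R:21378669-21378869): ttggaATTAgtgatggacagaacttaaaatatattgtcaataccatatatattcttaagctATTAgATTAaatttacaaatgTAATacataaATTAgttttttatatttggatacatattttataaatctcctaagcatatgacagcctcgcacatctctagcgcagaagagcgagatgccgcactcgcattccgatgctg

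The *NK7.1* window held 3 TAAT cores, all between 40 and 62 bases before its summit, and 1 GAGAGA 53 bases after it. At *zfh1* the overlapping cores ATTA and TAAT lay from 3 bases before the given summit to 2 bases after it. The windows of *tup* and *Lim1* were the 2 of the 5 with the palindrome TAATTA, 62 to 67 bases before the summit in *tup* and 5 to 10 bases after it in *Lim1*. *Lim1* also held 1 GAGAGA, and the *tin* window held 5 TAAT cores, all before the summit. The given summits of *zfh1*, *tup*, *Lim1* and *tin* lay within 1 bp of the centre of their peak intervals. Distances from them are thus distances from an interval's centre and may be no more exact than the interval.

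Fewer of the homeobox genes had a summit at a TSS than of protein-coding genes in general. A summit lay within 1 kb of a TSS of 9 of the 54 genes (16.7%), against 22.2% of all protein-coding genes. These were *ey*, *so*, *tin*, *C15*, *NK7.1*, *Dll*, *ro*, *btn* and *PHDP*. For 6 of them (11.1%), *so*, *tin*, *C15*, *NK7.1*, *Dll* and *PHDP*, the nearest protein-coding TSS was the gene's own, against 16.0% of all protein-coding genes. At *ey*, *ro* and *btn* another gene's TSS was nearer. In the gene body with 2 kb to each side the share was 17 of 54 (31.5%), against 33.7% of all protein-coding genes. The 8 genes added by the wider window were *otp*, *Lim1*, *tup*, *bsh*, *Dr*, *unc-4*, *hth* and *zfh1*. The TSS closest to the 1 kb limit from inside was that of *btn*, at 938 bp, and the closest from outside that of *zfh1*, at 1478 bp.

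The replicates' own lists of their 3866 highest peaks gave similar counts. Within 1 kb of a TSS they gave 7 genes in replicate 1, 7 in replicate 2 and 6 in replicate 3, a share of 12.3% ± 1.07 (SD, n = 3), against 22.2% ± 0.155 of all protein-coding genes. Each replicate's share was below its own genome-wide share. In the gene body with 2 kb to each side they gave 16, 17 and 14 genes, 29.0% ± 2.83, against 33.6% ± 0.175 of all protein-coding genes, again with every replicate below its own genome-wide share. Of the 17 genes, 10 (*otp*, *Lim1*, *tup*, *bsh*, *tin*, *NK7.1*, *ro*, *PHDP*, *hth* and *zfh1*) had a summit in their window in all 3 replicate lists. At *hth* this was not at 1 place, since no optimal site of *hth* was present in all 3 lists. The same share over all called protein-coding genes is not given here. The lists of replicates added 3 genes that the optimal list does not hold, *Awh* in all 3, *OdsH* in replicate 1 and *vis* in replicate 2. The replicate SD measures the spread between these 3 collections of 1 line, scored on the same 54 genes, and not how far a set of 54 genes varies by chance, which was not tested.

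Gene length sets how much sequence is searched, and the homeobox genes were long, with a median of 12.5 kb against 2.17 kb for all protein-coding genes. Among genes under 5 kb, 5 of 15 homeobox genes had a summit in the gene body window (33.3%), against 28.5% of all such genes. Between 5 and 20 kb the count was 5 of 21 (23.8%), against 47.0% of all protein-coding genes of that length. Between 20 and 50 kb it was 6 of 16 (37.5%), against 52.8%. Of the 2 homeobox genes over 50 kb, *hth* had summits and *pdm3* had none, against a share of 59.6% of all genes that long. The same pattern held at the TSS, with 4 of 15 short genes (26.7%) against 18.9% of all short genes, 2 of 21 (9.52%) against 32.6% between 5 and 20 kb, and 3 of 16 (18.8%) against 29.9% between 20 and 50 kb. Per length, the windows of the homeobox genes held 21.0 summits per Mb over 1.19 Mb, against 34.8 per Mb over the 103 Mb of all protein-coding gene windows. These 2 densities were not matched for gene length. The median distance from a gene's TSS to its nearest optimal summit was 12.2 kb for the homeobox genes and 7.59 kb for all protein-coding genes.

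**Figure D1:**
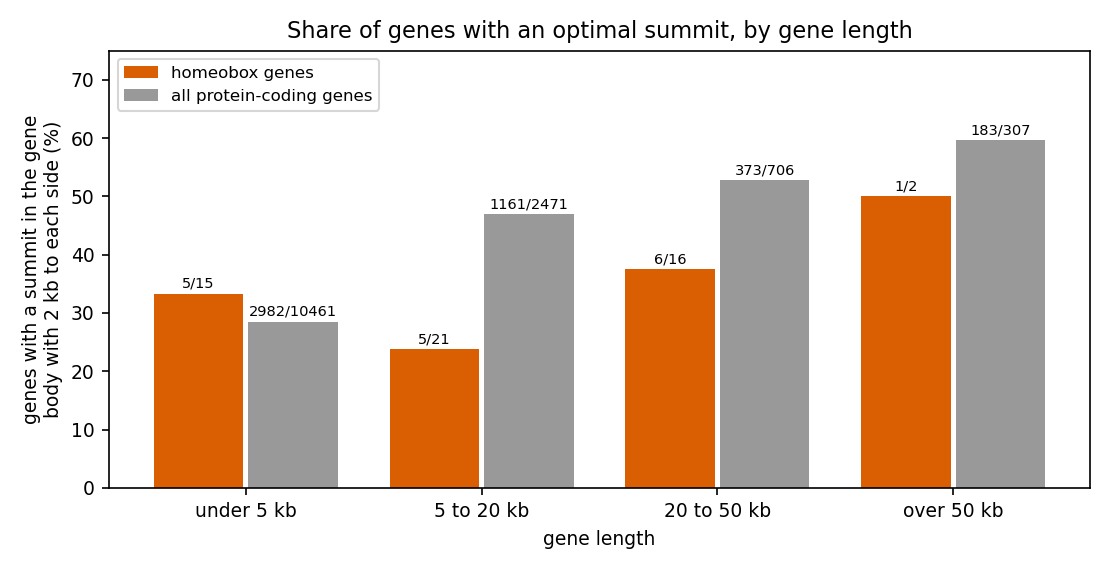
Share of genes with an optimal summit in the gene body with 2 kb to each side (percent, vertical axis) in 4 groups of gene length, for homeobox genes (orange) and all protein-coding genes (grey), with counts over the bars. The homeobox genes stand above all protein-coding genes only among genes under 5 kb, at 33.3% against 28.5%, and the bar of genes over 50 kb rests on 2 homeobox genes.

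The 25 summits were spread over promoters, introns and intergenic sequence much as all optimal summits were. Promoters, within 500 bp of a protein-coding TSS, held 12 of the 25 (48.0%), against 54.7% of all summits. In the replicates' own lists promoters held 11 of 24 summits at homeobox genes in replicate 1, 12 of 30 in replicate 2 and 9 of 18 in replicate 3. Only 6 of the 12 were promoters of the homeobox gene itself (*so*, *tin*, *C15*, *NK7.1*, *Dll* and *PHDP*). The other 6 were promoters of neighbouring genes, of *CG10602* beside *tup*, *fbp* beside *bsh*, *spn-B* beside *NK7.1*, *ms(3)K81* and *T48* beside *ro*, and *Efa6* beside *btn*. Introns held 8 summits (32.0%, against 30.03% of all summits) and intergenic sequence 3 (12.0%, against 12.5%). A coding exon held 1 summit, at *otp*, and 1 lay in the 3′ UTR of *wts* beside *zfh1*.

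The sites were mostly in the weaker part of the optimal list, though not of the replicates' own lists, and the weaker ones differed between replicates. The median rank was 2367 of 3866, and 10 of the 25 (40.0%) were among the 1933 highest. For summits at homeobox genes in the replicates' own lists, the median rank was 1799, 1799.5 and 1773.5 in replicates 1, 2 and 3. Each of these medians was among the 1933 highest ranks. Present in a replicate means overlap with 1 of its 3866 highest peaks, and 11 of the 25 (44.0%) were present in all 3 replicates, against 64.6% of all optimal peaks. The split followed rank: 9 of the 10 higher summits were present in all 3 replicates, against 96.5% of all peaks that high, and 2 of the 15 lower summits, against 32.8% of all peaks that low. Replicate 1 held 18 of the 25, replicate 2 held 22 and replicate 3 held 16. Over all optimal peaks the shares were 79.3% in replicate 1, 85.7% in replicate 2 and 88.0% in replicate 3, so replicate 3 held the largest share of all peaks but the fewest at the homeobox genes.

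**Figure D2:**
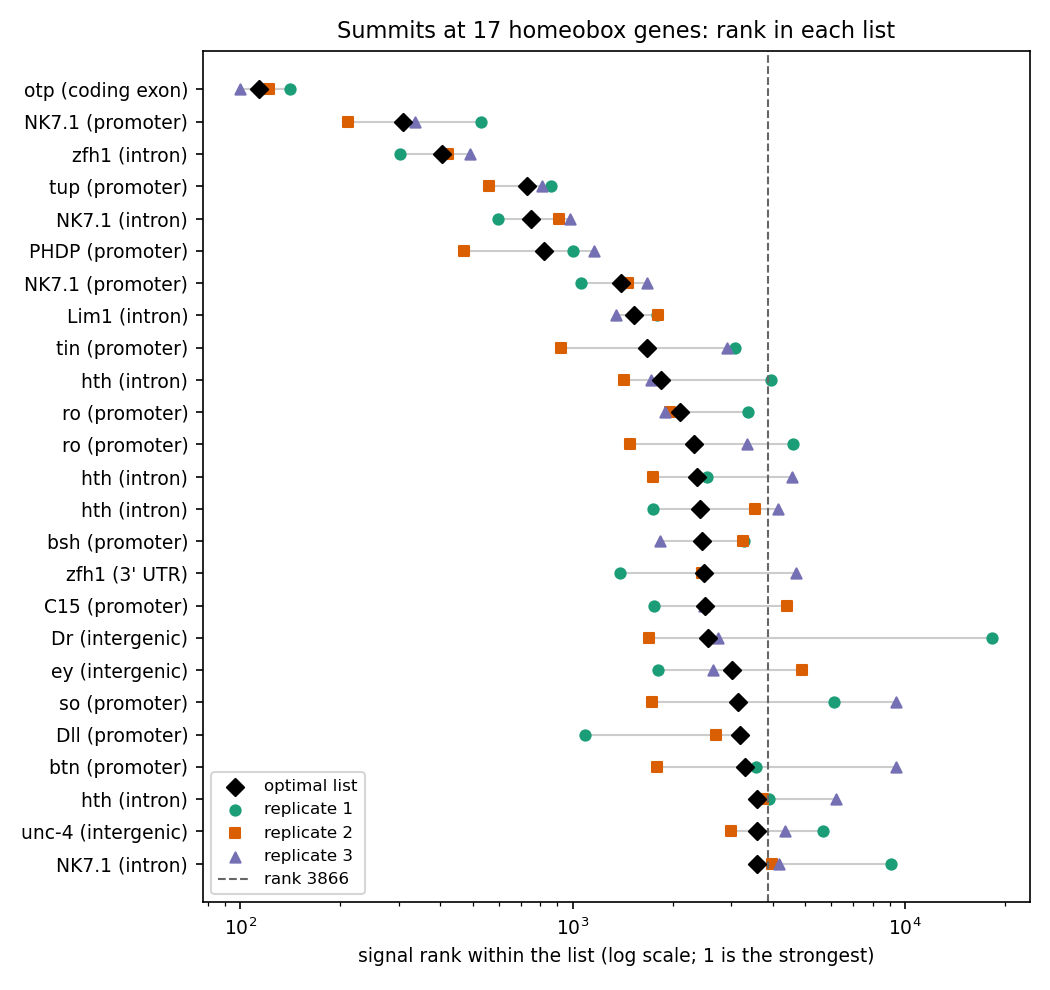
Signal rank (horizontal log axis, 1 is the strongest) of the 25 summits at 17 homeobox genes, in the optimal list (black diamonds) and of the overlapping entry in the list of each replicate (coloured marks), with the class of each site in brackets. Marks right of the dashed line lie outside the 3866 highest peaks of that replicate; the sites from *otp* (114) to *tin* (1674) have none there, most sites below have at least 1, and *Dll* has no entry of replicate 3.

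Of the 12 PRD genes, 4 had a summit. Beside this count and those of the families below, the gene body share of all protein-coding genes was 33.7%. Their share at a TSS was 22.2%, and differences between families were not tested. The highest site of the whole set was at *orthopedia* (*otp*), a gene of the hindgut and of brain neurons. It ranked 114 in the optimal list and 141, 122 and 100 in replicates 1, 2 and 3. Its peak of 243 bp lay on chr2R:20884451-20884693, in a coding exon near the 3′ end of the gene, 13005 bp downstream of the nearest *otp* TSS and 4649 bp from that of *Cib2*. Of the 15 optimal summits in coding exons it ranked first, with the next at rank 341 in *Pde1c*. In *PHDP* the summit lay 382 bp upstream of the TSS on 2R and ranked 819, with ranks of 1000, 471 and 1159 in replicates 1, 2 and 3.

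The other PRD sites were lower in the list. *ey*, the Pax6 gene that directs eye development, had an intergenic summit at rank 3015, 849 bp upstream of its TSS but 785 bp from that of *myo*, with ranks of 1802, 4892 and 2653 in replicates 1, 2 and 3. It was the only called gene of the 4 homeobox genes on chromosome 4, and its paralogue *toy* was not called. *unc-4*, a gene of postmitotic neurons, had a summit 1809 bp beyond its 3′ end at rank 3591, present in the highest peaks of replicate 2 alone. The uncalled PRD genes were *hbn*, *Rx*, *toy*, *al*, *OdsH*, *Pph13*, *Gsc* and *Ptx1*, among them genes of the brain, the antenna and leg tip (*al*), photoreceptors (*Pph13*) and the foregut (*Gsc*).

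Among the 3 genes of the *sine oculis* family, *sine oculis* itself (*so*), a partner of *ey* in eye development, had a promoter summit 261 bp upstream of its TSS on 2R. It ranked 3137 in the optimal list and 6121, 1732 and 9394 in replicates 1, 2 and 3, so it was among the highest peaks of replicate 2 alone. *Optix*, which also acts in the eye, and *Six4*, a gene of the mesoderm, had no optimal summit.

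Of the 5 LIM genes, *Lim1* and *tup* had a summit and neither was at its own TSS. *Lim1*, a gene of the head and of the leg and antenna, had an intronic summit on chr X, 11101 bp from its nearest TSS, at rank 1533, with ranks of 1796, 1804 and 1355 in replicates 1, 2 and 3. *tup*, the fly Islet gene of motor neurons and the heart, had a summit 1705 bp beyond its 3′ end at rank 729, with ranks of 858, 560 and 809. That summit was 123 bp upstream of the TSS of *CG10602* and 23459 bp from the TSS of *tup*. No optimal summit lay in the windows of *Lim3*, a motor neuron gene, *ap*, which specifies the dorsal wing, or *Awh*. For *ap* the nearest optimal summit was 247 kb from its TSS.

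Of the 12 NK and related genes, 5 held 8 of the 25 summits. *NK7.1* held 4 of them, on 3R, over a gene of 43.5 kb. The highest, at rank 308, was a peak of 159 bp on chr3R:14373287-14373445 with its summit 424 bp upstream of the TSS, ranked 529, 211 and 335 in replicates 1, 2 and 3. The next, at rank 750, lay in an intron 711 bp upstream of another *NK7.1* TSS and ranked 597, 908 and 983. The site at rank 1403 lay downstream of the gene, 197 bp upstream of the TSS of *spn-B*, and ranked 1058, 1465 and 1680. These 3 sites were present in all replicates, whereas the fourth, at rank 3600 in an intron, ranked 9091, 3970 and 4177 and was in the highest peaks of no replicate.

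*tinman* (*tin*), which is required for heart formation, had a promoter summit 208 bp upstream of its TSS at rank 1674, with ranks of 3080, 923 and 2919 in replicates 1, 2 and 3. *C15*, a gene of the leg tip, had a promoter summit 301 bp upstream of its TSS at rank 2510, with ranks of 1759, 4429 and 2481, and the TSS of a non-coding RNA gene was 280 bp from the same summit. *bsh*, a gene of brain neurons, was called by a summit 1599 bp beyond its 3′ end at rank 2459, 41 bp upstream of the TSS of *fbp*, with ranks of 3285, 3250 and 1829. *Dr*, which patterns dorsal neuroblasts and muscles, was called by an intergenic summit 1989 bp beyond its 3′ end, at the very edge of the window, at rank 2548. Its ranks of 18317, 1698 and 2748 in replicates 1, 2 and 3 were the widest apart among the sites with an entry in every replicate. The uncalled genes were *scro*, *vnd*, *bap*, *lbe*, *lbl*, *slou* and *Hmx*. They include *vnd*, of the ventral column of the neuroectoderm, *bap*, of the visceral mesoderm, and *lbe*, *lbl* and *slou*, of particular heart or muscle cells.

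Of the 8 remaining ANTP genes, 3 had a summit within 1 kb of a TSS. *Distal-less* (*Dll*), the gene that starts limb outgrowth, had a promoter summit 73 bp upstream of its TSS on 2R at rank 3196, with ranks of 1091 and 2704 in replicates 1 and 2 and no overlapping entry in replicate 3. *rough* (*ro*), a gene of photoreceptor specification, had a summit 409 bp upstream of its TSS at rank 2326, 154 bp upstream of that of *T48*, with ranks of 4594, 1486 and 3356. Another summit lay 901 bp beyond the 3′ end of *ro* at rank 2112, 18 bp inside *ms(3)K81*, with ranks of 3361, 1960 and 1900. *buttonless* (*btn*), a gene of the dorsal median cells, had a summit 938 bp upstream of its TSS at rank 3298, 192 bp upstream of the TSS of *Efa6*, with ranks of 3567, 1795 and 9430. *Dll* was the only one of the 3 whose own TSS was nearest. No optimal summit lay in the windows of *unpg*, *ind*, *B-H1*, *B-H2* or *exex*, the last a motor neuron gene.

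*homothorax* (*hth*) was the only called gene of the 7 TALE genes. Its protein carries Extradenticle, a cofactor of Hox proteins, into the nucleus. Over 132 kb on 3R it held 4 intronic summits, at ranks 1839, 2367, 2413 and 3578, from 3405 to 53427 bp from the nearest *hth* TSS. None was present in all 3 replicates. The site at rank 1839 ranked 3944, 1429 and 1718 in replicates 1, 2 and 3, and that at rank 2367 ranked 2536, 1751 and 4570. The site at rank 2413 ranked 1745, 3541 and 4144, and that at rank 3578 ranked 3895, 3739 and 6221. *exd*, which encodes Extradenticle, the Iroquois genes *ara*, *caup* and *mirr*, and the testis genes *vis* and *achi* had no optimal summit.

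Of the pair of zinc finger homeobox genes, *zfh1*, which encodes a transcriptional repressor of the mesoderm and gonad, held 2 summits. The higher, at rank 405, lay in an intron on chr3R:30781578-30781981, 1478 bp upstream of the second *zfh1* TSS, and ranked 302, 421 and 490 in replicates 1, 2 and 3. The other, at rank 2490, lay 427 bp beyond the 3′ end of *zfh1* in the 3′ UTR of *wts* and ranked 1389, 2446 and 4699. *zfh2*, the POU genes *acj6*, *pdm3*, *nub* and *pdm2*, which act in neurons or neural precursors, and the CUT gene *onecut* had none.

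**Figure D3:**
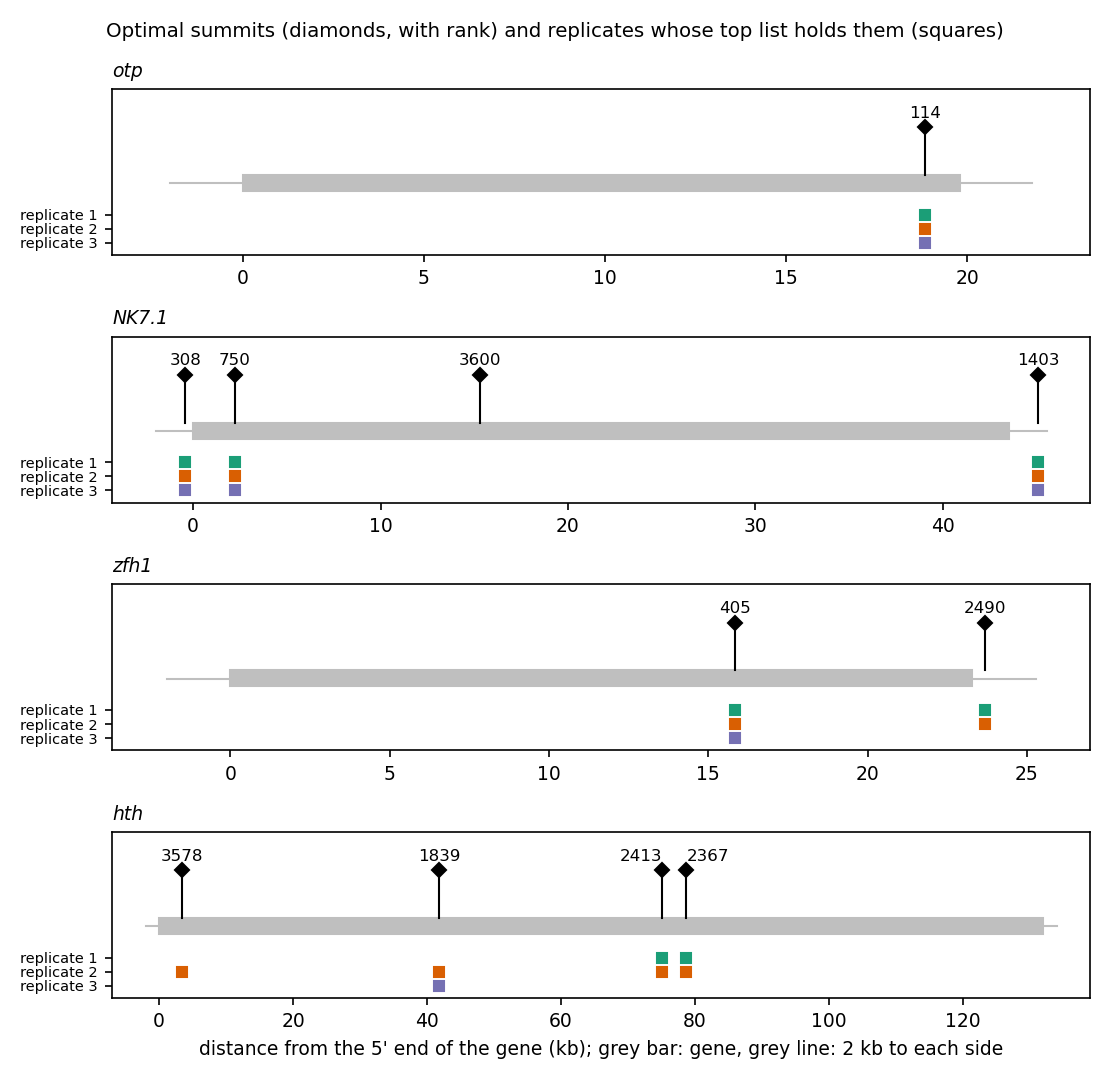
Positions of optimal summits (diamonds, labelled with their rank) along *otp*, *NK7.1*, *zfh1* and *hth*, in kb from the 5′ end of each gene, with squares for the replicates whose 3866 highest peaks hold each site. The sites at *otp* (114) and the highest of *NK7.1* (308) and *zfh1* (405) have squares for all 3 replicates, whereas the 4 sites of *hth* have 1 or 2 squares each.

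Of the 37 genes without an optimal summit, 34 had at least 1 weaker entry in their window in the joint list of 30000 entries, which also holds background regions. Over all 13945 protein-coding genes, 4699 had an entry in this window up to rank 3866 and 11338 over the whole joint list. Up to rank 4780 the shares were 38.9% of the homeobox genes and 38.6% of all protein-coding genes. Of the 37 genes, 3 had an entry with the authors' q-value under 0.01, *Awh* (rank 4322, q = 0.00613), *acj6* (rank 4472, q = 0.00727) and *vis* (rank 4521, q = 0.00763). Those of *Awh* and *acj6* lay in introns of these genes. That of *vis* lay 3955 bp downstream of its TSS, beyond the 3′ end of this gene of 2.72 kb, in an intron of another gene. These 3 entries were the closest from outside to the last rank of 3866, and the closest from inside were *NK7.1* at 3600 and *unc-4* at 3591. *lbl* (rank 4705, q = 0.0101) and *OdsH* (rank 4789, q = 0.011) came next, also in introns. *mirr* had a promoter entry 457 bp upstream of its TSS at rank 5469, and *pdm3* one 16 bp upstream at rank 6182, with no entry of replicate 2. *Awh*, a gene of imaginal precursor cells, was in the highest peaks of every replicate, but not at 1 place. Its highest entry lay 5788 bp downstream of the TSS in replicate 1 (rank 3618), 5884 bp in replicate 2 (rank 3281) and 16374 bp in replicate 3 (rank 2665).

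*scro*, *ind* and *onecut* had no entry in their windows among the 30000 of the joint list. The replicates' own lists held low entries there. The highest ranked 22261 for *scro* and 19151 for *ind*, both in replicate 2, and 13111 for *onecut*, in replicate 3. *scro* lies on 3L beyond the last optimal summit of that arm, with 1.85 Mb between them.

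As the joint list was read further down, the homeobox genes overtook the genome-wide share. Up to rank 1000, 3.70% of them had an entry within 1 kb of a TSS, against 7.06% of all protein-coding genes. At rank 7732 it was 29.6% against 36.0%, at rank 15000 it was 46.3% against 49.6%, and over the whole list 75.9% against 64.0%. In the gene body window the shares were 9.26% against 11.8% up to rank 1000, 51.9% against 50.3% at rank 7732 and 94.4% against 81.3% over the whole list. Only 4696 of the 30000 entries have a q-value under 0.01, so most entries that low cannot be called sites. The homeobox genes were also longer, with a median of 12.5 kb against 2.17 kb. Whether gene length bears on these shares was not tested.

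**Figure D4:**
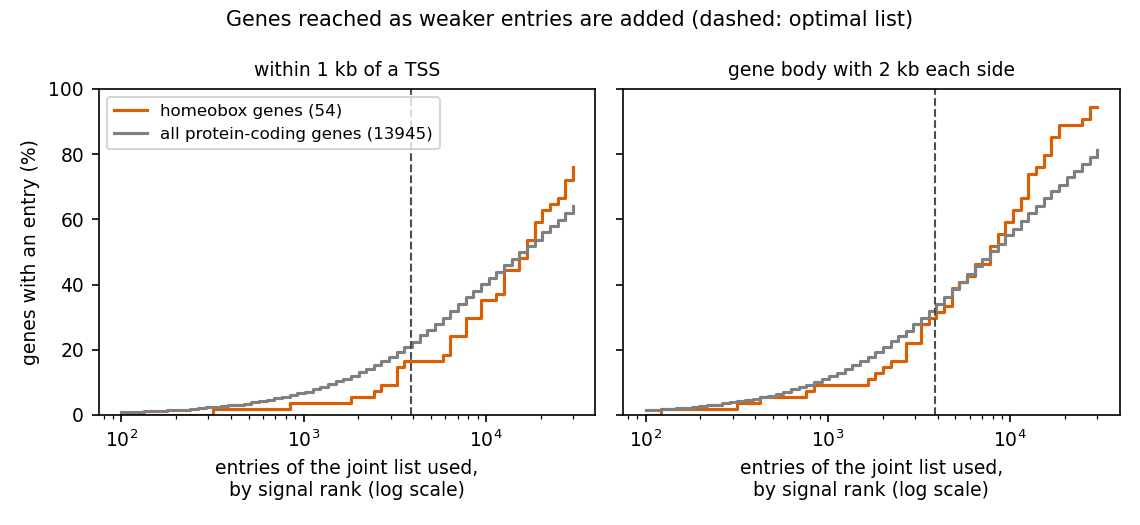
Percent of genes with an entry of the joint list (vertical axis) as entries are added by signal rank (horizontal log axis), for the 54 homeobox genes (orange) and all 13945 protein-coding genes (grey), within 1 kb of a TSS (left panel) and in the gene body with 2 kb to each side (right panel). At the dashed line, rank 3866, the orange curves are at 16.7% and 31.5% and the grey at 22.2% and 33.7%, and by the end of the list the orange curves are the higher.

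Several of the genes lie beside related genes in clusters, which were looked at after the values of single genes had been seen. The NK cluster on 3R (*tin*, *bap*, *lbl*, *lbe*, *C15* and *slou*) held 4 optimal summits over 182 kb. Of these, 2 were the promoter sites of *tin* (1674) and *C15* (2510), and the other 2 lay between the genes with their nearest TSSs in *sp3* (rank 122) and *Fancm* (rank 954). The Iroquois complex on 3L (134 kb), the *nub* and *pdm2* pair on 2L (103 kb) and the *vis* and *achi* pair on 2R (11.2 kb) held no optimal summit. The Bar pair *B-H1* and *B-H2* held 1 between its genes over 92.7 kb, at rank 2966. The neighbours *otp*, *Rx* and *hbn* on 2R held the *otp* site alone over 81.3 kb, and *unc-4* and *OdsH* on X the *unc-4* site alone over 49.4 kb. Per Mb these were 22.0 summits in the NK cluster, 20.2 at *unc-4* and *OdsH*, 12.3 at *otp*, *Rx* and *hbn*, and 10.8 at the Bar pair. The windows of all protein-coding genes held 34.8 per Mb. How far counts over such short spans vary was not tested.

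Other gene lists counted in the same way gave a range of shares. Over all protein-coding genes the shares were 22.2% at a TSS and 33.7% in the gene body window. None of 8 Hox genes had a summit within 1 kb of a TSS and 3 had 1 in the gene body window, *Antp* (highest rank 1414), *Ubx* (1810) and *Abd-B* (3223). Of 14 segmentation and head homeobox genes 1 was called at a TSS, *bcd* (1461), and 3 in the gene body window, with *cad* (2634) and *ems* itself (3457). Of 13 homeobox genes in none of these lists 1 was called at a TSS, *pros* (3235), and 2 in the gene body window, with *ct* (1155). Of 8 genes for cofactors of homeodomain proteins 4 were called at a TSS, the corepressor gene *gro* (159), the kinase gene *Hipk* (1162), the corepressor gene *CtBP* (1520) and *Ssdp* (1786), whose protein joins LIM factor complexes. *Bx*, which encodes a LIM-only protein, made 5 in the gene body window, with a summit at rank 1153. Median gene lengths were 30.6 kb for the Hox genes and 3.23 kb for the segmentation and head homeobox genes. They were 12.3 kb for the 13 other homeobox genes and 17.1 kb for the cofactor genes, against 2.17 kb for all protein-coding genes. How far shares of so few genes vary was not tested. Of 36 genes for basic helix-loop-helix factors, a family with another kind of DNA-binding domain, 6 were called at a TSS (16.7%) and 12 in the gene body window (33.3%). Their share at the TSS equalled that of the 54 homeobox genes, at a median gene length of 2.21 kb.

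The windows of 100 bp to each side of the 25 summits held the searched motifs about as often as those of all 3866 optimal summits. TAAT or ATTA occurred in 21 of 25 (84.0%), against 90.0% of all windows of that length, and the windows without it were those of *otp*, of *NK7.1* at rank 750, of *ro* at rank 2326 and of *Dll*. TAATTA occurred in 3 (12.0%), those of *tup*, *Lim1* and *ey*, against 15.1% of all. ACACTG or its reverse complement CAGTGT, part of the core promoter element motif 1, occurred in 5 of 25, against 20.7% of all, and 3 of the 5 were introns of *hth*. CGATAG or CTATCG occurred in 3 (12.0%), at *ro* (2112), *ey* and *btn*, against 13.3%, and the DREF element TATCGATA, which overlaps it, in 1 (4.0%), at *btn*, against 5.38%. GAGAGA or TCTCTC occurred in 3 (12.0%), of *NK7.1* at ranks 308 and 1403 and of *Lim1*, against 10.7%. The Hox and Exd composite TGATTGAT or ATCAATCA occurred in 0 of the 25 and in 1.03% of all windows. The median GC content was 36.3% at the 25 summits, against 36.8% over all, and reached 53.7% at *otp*, 59.7% at *C15* and 64.7% at *Dll*. These matches describe letters in the windows and do not show which protein was bound.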

How the data were processed

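Peak lists on dm6 in narrowPeak format were used as deposited by the authors, 1 for each of 3 replicates, 1 joint and 1 optimal; the dm3 lists were not used. A control file entered the calling of every replicate list and of the joint list, per the deposited notes. Which aligner, peak caller and settings the authors used is not given in the sources used here. The signal column, on a scale not given, was deposited by the authors and served only for ranks, and the −log10 q-value column, also deposited, for q-values under 0.01. The optimal list equals the 3866 highest entries of the joint list. A summit is an interval's start plus its offset column. It lay within 1 bp of the interval's centre in 87.1% of optimal peaks, so its position is often no more exact than the interval.

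Genes came from Ensembl release 115 of the Release 6 assembly, which is dm6. A summit within 500 bp of a protein-coding TSS was called promoter; otherwise UTRs went before coding exons, those before introns, and exons of non-coding genes before intergenic sequence. Present in a replicate means overlap by at least 1 bp with 1 of its 3866 highest peaks. Python 3.11.15, numpy 2.4.6 and pandas 2.3.3 were used, and the counting was tested on simulated summits. No test was run, since there is 1 group. Every homeobox gene with a summit was named with rank and class; of genes with a site in all 3 replicates, the highest window outside 2R was to be shown, and those of *ro* and *bsh* were left out, after they were seen, for their UTR bases. The genes and lists were chosen with earlier results of these data known. Alternatives changed the windows, the peaks used, the replicates, the overlap rule and the promoter width.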

Additional observations from a re-analysis of the deposited data

How the results depend on the processing

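Of 79 alternatives for 7 summary values, 42 stayed within 1.5 times the count or 1 SD between replicates and 37 did not. A TSS window of 5 kb gave 15 genes, when all protein-coding genes reached 40.6%. The gene body without flanks held 9 summits of 5 genes (9.26%, against 11.0% of all protein-coding genes), with a promoter share of 0% and a median rank of 1839. The 1933 highest optimal peaks left 3 of 54 genes at a TSS, against 12.6% of all protein-coding genes. They left 3 with their own TSS nearest, for which the share of all genes is not given here. In the gene body window they left 8 genes with 10 summits. Up to rank 2000 the gene body shares were 14.8% of the homeobox genes and 20.9% of all protein-coding genes. Of the 10 summits, 90.0% were present in all replicates, against 96.5% of all peaks that high, and their median rank was 784.5. Joint entries with q under 0.01 gave a promoter share of 38.7% and a median rank of 2490. Whole replicate lists put 96.0% in all replicates. The promoter share was 32.0% at 250 bp and 56.0% at 1000 bp, and 40.0% in the list of replicate 2; the median rank was 1799, 1799.5 and 1773.5 in replicates 1, 2 and 3, and in replicate 3 alone 66.7% were present in the others.

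Keeping only peaks matched in both other replicates gave, over the replicate left out, 4 to 5 genes at a TSS (7.41% to 9.26%, against 16.2% to 17.8% of all protein-coding genes), 3 to 4 with their own TSS nearest, and 11 to 12 in the gene body window (20.4% to 22.2%, against 25.6% to 27.7%). It gave 13 to 16 summits, which are 52.0% to 64.0% of the 25, promoter shares of 56.3% to 61.5%, and median ranks of 1403 to 1603.5. The cause of these shifts was not tested. Read depth, which would set the precision of each rank, is unknown.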
